A study of Mus musculus with 21 samples.

Results

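The genes of glycolysis and the pentose phosphate pathway were followed in mouse B cell precursors that carried C-MYC, BCR-ABL1 or the empty vector (EV). The list holds 37 genes chosen by name for their role in these pathways, and all 37 were found among the 24421 gene symbols of the count table. It covers glucose and lactate transporters, the enzymes from hexokinase to lactate dehydrogenase, the pyruvate dehydrogenase kinases and both branches of the pentose phosphate pathway. The cells were primary bone marrow-derived precursors of 53BP1-/- C57BL/6 mice, grown with interleukin-7. They were transduced with the retroviral vector MIGR1, empty or encoding human BCR-ABL1 or mouse C-MYC, and RNA was taken between day 7 and day 9 after transduction. All conditions, the control included, therefore lacked 53BP1, a DNA repair factor, and had gone through viral transduction. Poly(A) RNA was sequenced from 2 libraries per condition, 6 in all, that came from duplicate experiments. Whether the duplicates used separate animals, and whether animals were pooled, is not given in the sources used here.

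Glycolysis splits glucose into pyruvate in the cytosol and yields ATP and NADH. Pyruvate is then used in mitochondria by the pyruvate dehydrogenase complex or is reduced to lactate. This reduction regenerates NAD+, and lactate leaves the cell through lactate transporters. The pentose phosphate pathway branches from glucose-6-phosphate: its oxidative branch yields NADPH and its non-oxidative branch exchanges sugars between ribose-5-phosphate and glycolysis. Proliferating lymphoid cells are known to use these pathways for energy and for nucleotide precursors. MYC is a transcription factor that binds E-boxes, and several glycolytic genes are known targets of it, while BCR-ABL1 is a constitutively active tyrosine kinase.

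The canonical E-box, CACGTG, which reads the same on both strands, was looked for in the promoters of the members, taken as 250 bases before to 50 bases after each RefSeq start site (GRCm38.p6). Promoters were held for 36 of the 37 members, all but Slc2a3. The letters were found for 6 of these 36 genes, or 16.7%, beside 11.7% of the 9714 genes tested for expression that had a promoter and 8.09% of all 27025 genes with a promoter. Counted by promoter, since a gene can have several start sites, 6 of 53 promoters of members (11.3%) held it, beside 9.87% of the 12357 promoters of genes tested. The 6 genes were Ldha, Slc16a1, Pfkm, Pdk2, Pfkfb3 and Pfkfb2. Upstream sequences are shown for the 3 of them with higher levels in C-MYC than in EV (Ldha, Slc16a1, Pfkm) and for Pdk2, which had a lower level there. Each is the strand of the gene, 5′ to 3′, from 250 bases before the start site up to it, with the E-box in capitals.
Ldha (chr7:46845554-46845803, plus strand): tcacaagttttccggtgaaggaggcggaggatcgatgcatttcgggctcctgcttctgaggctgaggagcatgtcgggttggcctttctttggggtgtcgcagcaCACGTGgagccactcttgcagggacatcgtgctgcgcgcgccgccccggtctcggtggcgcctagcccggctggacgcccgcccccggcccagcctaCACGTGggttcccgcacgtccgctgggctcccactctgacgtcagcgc
Slc16a1 (chr3:104638414-104638663, plus strand): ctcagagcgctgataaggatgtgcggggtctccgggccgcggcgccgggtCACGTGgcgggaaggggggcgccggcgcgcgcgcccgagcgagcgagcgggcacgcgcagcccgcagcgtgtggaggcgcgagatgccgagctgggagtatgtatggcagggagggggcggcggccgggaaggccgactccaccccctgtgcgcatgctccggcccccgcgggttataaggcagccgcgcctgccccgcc
Pfkm (chr15:98092339-98092588, plus strand): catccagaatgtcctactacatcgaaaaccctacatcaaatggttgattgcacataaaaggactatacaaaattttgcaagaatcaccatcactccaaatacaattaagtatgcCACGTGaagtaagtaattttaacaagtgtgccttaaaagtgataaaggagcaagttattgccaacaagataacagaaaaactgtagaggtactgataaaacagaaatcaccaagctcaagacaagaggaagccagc
Pdk2 (chr11:95041372-95041621, minus strand): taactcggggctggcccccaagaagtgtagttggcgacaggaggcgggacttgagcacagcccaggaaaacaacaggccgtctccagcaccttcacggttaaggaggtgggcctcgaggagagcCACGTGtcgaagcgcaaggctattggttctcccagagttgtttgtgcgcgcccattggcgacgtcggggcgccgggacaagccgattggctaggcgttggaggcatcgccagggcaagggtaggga

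Ldha held the letters at 145 and 48 bases before the start site, counted to the first letter, Slc16a1 at 200, Pfkm at 136 and Pdk2 at 126 bases. Pfkfb3 and Pfkfb2, whose sequences are not shown, held them at 53 and 22 bases. Neither gene was called in any comparison. Ldha, Pfkm, Pdk2, Pfkfb3 and Pfkfb2 also had other start sites, and the windows of those held no E-box. Which start site the cells used was not tested. The E-box was held by 3 of the 17 members that were higher in C-MYC than in EV (17.6%) and by 3 of the 16 other members that were tested and had a promoter (18.8%). The core letters of the hypoxia response element, ACGTG or GCGTG on either strand, the first of which lies within the E-box, were found for 88.9% of the 36 members and for 67.0% of the 9714 genes tested. Counted by promoter, the shares were 79.2% of 53 and 61.0% of 12357. By promoter, the share was 79.2% both for members higher in C-MYC than in EV and for the other members tested. By gene, it was 94.1% of the 17 higher members and 87.5% of the 16 others. A match is a description of these windows only, and no sequence outside them was searched.

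The libraries held between 20687092 and 24095955 counts, and the members took 1.04% and 0.960% of them with EV, 0.919% and 0.955% with BCR-ABL1 and 1.53% and 1.31% with C-MYC. Ldha, Pkm and Gapdh together made up 48.5% to 52.5% of the members' counts in every library. Myc, whose reads include those of the C-MYC vector, had 3869 and 3277 counts with EV, 7239 and 8381 with BCR-ABL1 and 37920 and 27450 with C-MYC. The 14 B cell precursor markers had a summed level of 6629 to 7612 CPM (read counts scaled to the size of the library) in EV and BCR-ABL1 and of 3944 and 4635 in C-MYC, where 12 of the 14 were lower than in EV, and none was at 0. The 12 myeloid markers summed to 1350 and 1238 CPM with EV, 149 and 169 with BCR-ABL1 and 215 and 371 with C-MYC, with none at 0. T and NK cell markers (10 genes) summed to 142 to 178, 73.3 to 89.3 and 6.80 to 10.2 CPM with EV, BCR-ABL1 and C-MYC, and without Cd2, which was higher in BCR-ABL1 than in EV (79.7 and 62.6 against 19.7 and 23.2 CPM), the other 9 summed to 158 and 119, 9.58 and 10.7, and 4.46 and 7.72 CPM. Stromal markers (8 genes) summed to 104 to 157, 5.03 to 6.07 and 1.75 to 2.60 CPM, in the same order of conditions, with 1, 2 and 4 or 5 of the stromal markers at 0. Erythroid markers (8 genes, 5 of them at 0) summed to 0.920 to 1.75 CPM. All CPM here are scaled by the trimmed mean of M-values (TMM), and a lower level can mean fewer cells of a type or less RNA per cell, which cannot be told apart in bulk RNA.

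Across the pathway, 21 members were called in C-MYC against EV and 6 in BCR-ABL1 against EV. Low counts removed Eno1, Eno2 and Pdk4, and 34 members were tested with edgeR's quasi-likelihood test, with p-values adjusted over all 12786 genes tested and a call at an adjusted p below 0.05. In C-MYC against EV, 17 of the 34 were higher and 4 lower, and over all genes tested 18.6% were called higher and 24.5% lower. In BCR-ABL1 against EV, 3 were higher and 3 lower, beside 5.08% and 12% of all genes. In C-MYC against BCR-ABL1, 16 were higher and 1 lower, beside 11.5% and 11.9% of all genes. The median log2 fold change of the 34 members was 0.47, -0.09 and 0.46 in these comparisons, and that of all genes tested was -0.08, 0.00 and 0.00. Both comparisons with EV use the same EV libraries, so C-MYC against BCR-ABL1 is the test of their difference.

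**Figure D1:**
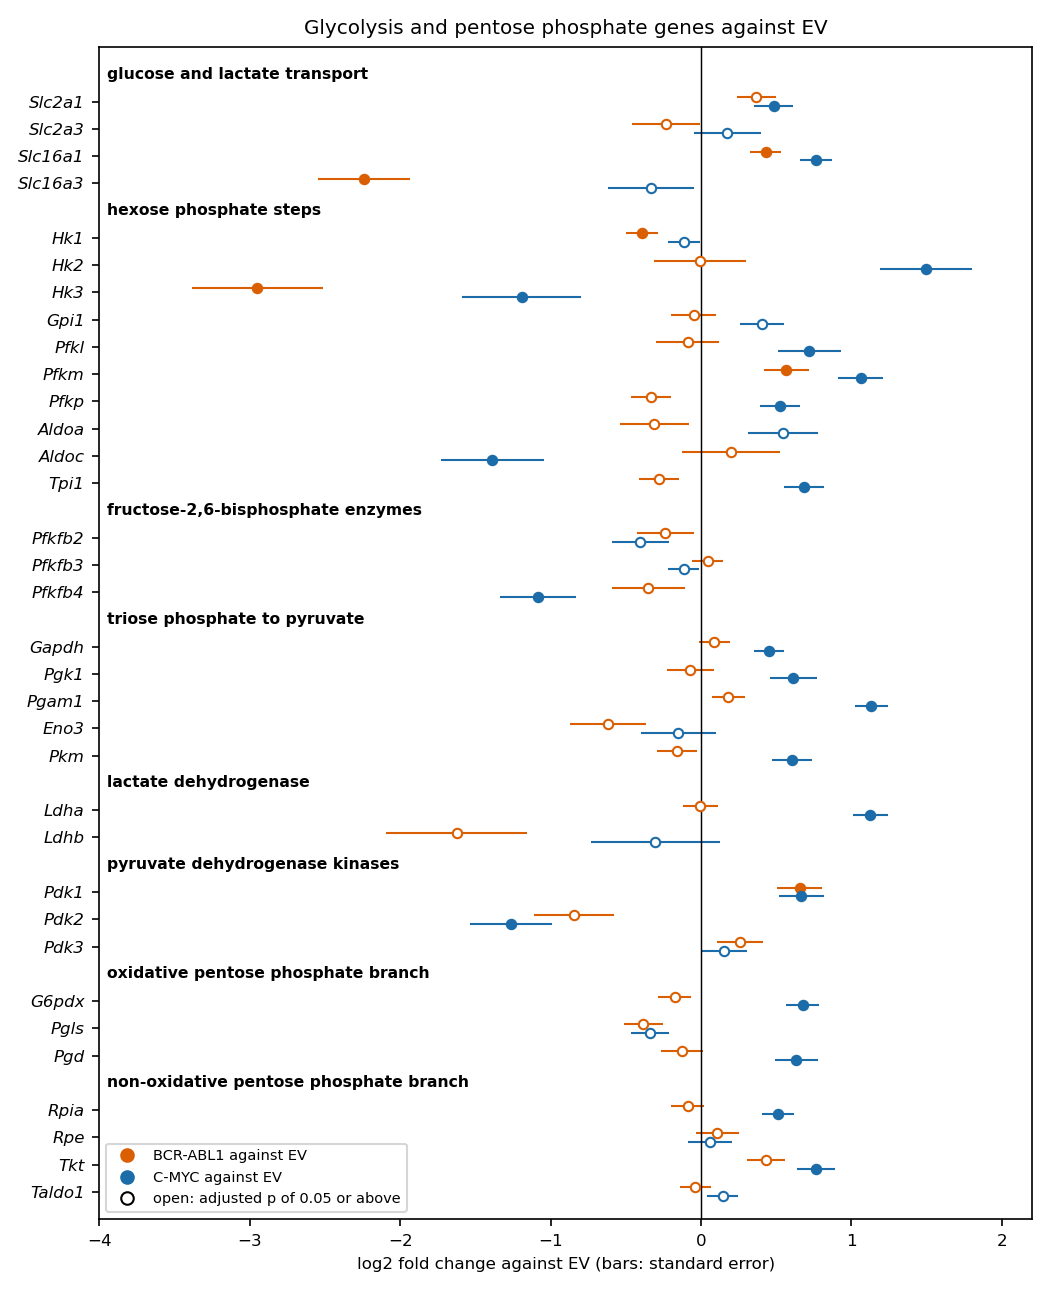
Log2 fold change against EV (x axis) of the 34 members tested, grouped by role, for BCR-ABL1 (orange) and C-MYC (blue). Points are edgeR estimates from 2 libraries per condition, bars are standard errors and filled points have an adjusted p below 0.05. Of the 34 C-MYC points 23 lie to the right of 0, beside 5795 of all 12786 genes tested, which are not drawn. The points farthest to the left are Hk3 and Slc16a3 in BCR-ABL1.

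**Figure D2:**
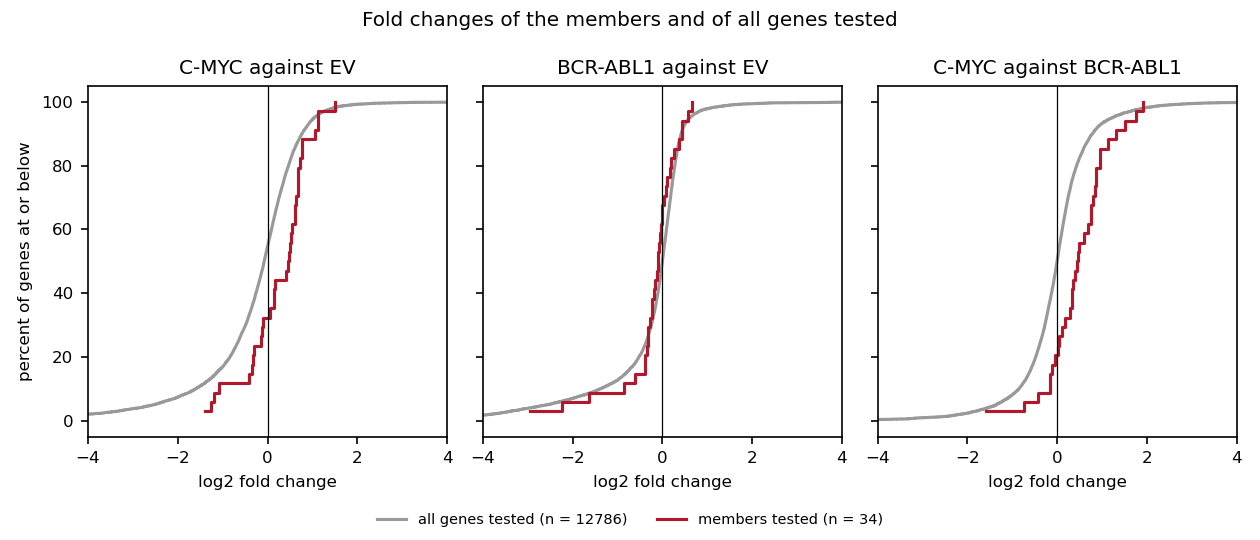
Cumulative percent of genes (y axis) at or below a log2 fold change (x axis, drawn from -4 to 4) for the 34 members tested (red) and all 12786 genes tested (grey). The red curve lies to the right of the grey over most of its range in both comparisons with C-MYC, with medians of 0.47 and 0.46, and near it in BCR-ABL1 against EV, with a median of -0.09.

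Of the transporters, the lactate exporters moved in different ways. Slc16a1, which encodes the monocarboxylate transporter MCT1, was at 290 and 323 CPM with EV, 401 and 425 with BCR-ABL1 and 544 and 495 with C-MYC. The conditions did not overlap, and the gene was 1.70-fold higher in C-MYC (adjusted p = 0.00126) and 1.35-fold higher in BCR-ABL1 (adjusted p = 0.0285) than in EV, while C-MYC against BCR-ABL1 missed the threshold (log2 fold change 0.33 ± 0.10 SE, adjusted p = 0.0545). Slc16a3, which encodes MCT4, the transporter of highly glycolytic cells, was at 30.6 and 29.2 CPM with EV, 5.02 and 7.60 with BCR-ABL1 and 30.4 and 17.1 with C-MYC. BCR-ABL1 libraries were below all others. The log2 fold change was -2.24 ± 0.31 against EV (4.72-fold lower, adjusted p = 0.00321) and 1.91 ± 0.31 for C-MYC against BCR-ABL1 (adjusted p = 0.00545). C-MYC overlapped EV for this gene, with a log2 fold change of -0.33 ± 0.28 (adjusted p = 0.378). Slc16a3 was low in the condition in which the myeloid markers summed to 149 and 169 CPM against 1238 and 1350 in EV, while in C-MYC, with 215 and 371 CPM of those markers, it was at 30.4 and 17.1 CPM; the part of other cells in the difference was not tested. Of the glucose transporters, Slc2a1 (GLUT1) was at 39.5 and 43.7 CPM in EV and 54.5 and 61.8 in C-MYC, 1.40-fold higher (adjusted p = 0.0198). With limma on the deposited FPKM this difference was not called. Slc2a1 was at 51.6 and 55.8 CPM in BCR-ABL1, which missed the threshold against EV (adjusted p = 0.0982). Slc2a3 (GLUT3) was between 17.8 and 28.6 CPM in all libraries and was not called in any comparison.

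Hexokinases trap glucose in the cell as glucose-6-phosphate. Hk2 (chr6:82725025-82774454, minus strand, GRCm38) was at 24.5 and 44.0 CPM with EV, 26.8 and 41.4 with BCR-ABL1 and 84.0 and 110 with C-MYC. Both C-MYC libraries lay above all others, whereas EV and BCR-ABL1 overlapped. The log2 fold change was 1.50 ± 0.31 against EV (2.82-fold, adjusted p = 0.00634), the largest increase over EV of the 34 members tested (without EV replicate 1 it was 1.14, below the 1.20 of Ldha), and 1.50 ± 0.31 against BCR-ABL1 (adjusted p = 0.0124). BCR-ABL1 against EV was -0.01 ± 0.30 (adjusted p = 0.991). Hk1, the widely expressed form, was at 215 and 200 CPM with EV, 152 and 164 with BCR-ABL1 and 201 and 182 with C-MYC. It was 1.31-fold lower in BCR-ABL1 than in EV (adjusted p = 0.0427).

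Hk3 (chr13:55005985-55021385, minus strand), a hexokinase known from myeloid cells, was at 21.0 and 28.1 CPM with EV, 2.42 and 3.91 with BCR-ABL1 and 6.34 and 15.1 with C-MYC. It was highest in EV and lowest in BCR-ABL1, with no overlap of conditions. The log2 fold change against EV was -2.95 ± 0.43 in BCR-ABL1 (adjusted p = 0.0043) and -1.19 ± 0.40 in C-MYC (adjusted p = 0.0421), and C-MYC was 3.38-fold above BCR-ABL1 (adjusted p = 0.0236). The order of the 6 libraries followed that of the summed myeloid markers except within EV, and all 12 of these markers were called lower than EV in both BCR-ABL1 and C-MYC; their part in the Hk3 difference was not tested. Without C-MYC replicate 1 the log2 fold change of Hk3 in C-MYC against EV was -0.69 (adjusted p = 0.171), without C-MYC replicate 2 it was -1.95 (adjusted p = 0.0135) and without EV replicate 2 it was -0.96 (adjusted p = 0.0945). In C-MYC against BCR-ABL1 it was 1.76, and 1.00 without C-MYC replicate 2 (adjusted p = 0.135).

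The phosphofructokinases catalyze the committed step of glycolysis, and all 3 of their genes were higher in C-MYC than in EV. Pfkm (chr15:98092589-98132451, plus strand) was at 13.3 and 15.8 CPM with EV, 21.9 and 21.1 with BCR-ABL1 and 29.7 and 30.9 with C-MYC. The 3 conditions were separate, with BCR-ABL1 in between, and Pfkm was, beside Hk3, the only member called in all 3 comparisons. It was 2.09-fold higher in C-MYC (adjusted p = 0.00143) and 1.48-fold higher in BCR-ABL1 (adjusted p = 0.0393) than in EV, and 1.41-fold higher in C-MYC than in BCR-ABL1 (adjusted p = 0.0477). Pfkl was at 95.7 and 144 CPM with EV, 97.6 and 128 with BCR-ABL1 and 212 and 183 with C-MYC, 1.65-fold above EV (adjusted p = 0.0264). The Pfkl call was absent with limma on the deposited FPKM. Pfkp was at 105 and 85.4 CPM with EV, 76.7 and 75.0 with BCR-ABL1 and 145 and 130 with C-MYC, 1.44-fold above EV (adjusted p = 0.0149) and 1.81-fold above BCR-ABL1 (adjusted p = 0.00495).

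The enzymes that make and break fructose-2,6-bisphosphate, an activator of phosphofructokinase, did not follow this pattern. Pfkfb4 (chr9:108991778-109032228, plus strand) was at 5.47 and 4.64 CPM with EV, 3.89 and 4.03 with BCR-ABL1 and 2.30 and 2.47 with C-MYC. C-MYC was below all other libraries and 2.12-fold below EV (log2 fold change -1.08 ± 0.25, adjusted p = 0.0107), on 50 to 117 counts per library. Pfkfb3, the most abundant of the family by FPKM, was between 119 and 139 CPM in all libraries, and Pfkfb2 between 15.4 and 25.4 CPM. Neither was called in any comparison.

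Between glucose-6-phosphate and the triose phosphates, one aldolase gene was lower in C-MYC than in BCR-ABL1 and the other higher. Aldoc (chr11:78322968-78327781, plus strand), the aldolase known from brain, was at 11.3 and 6.35 CPM with EV, 10.7 and 9.60 with BCR-ABL1 and 4.14 and 2.60 with C-MYC. It was 2.62-fold lower in C-MYC than in EV (adjusted p = 0.0137) and 3.00-fold lower than in BCR-ABL1 (adjusted p = 0.0151), the only member called lower in that comparison. Aldoa, the main aldolase, was at 887 and 610 CPM with EV, 607 and 601 with BCR-ABL1 and 1337 and 849 with C-MYC. Here EV and C-MYC overlapped and the comparison was not called (log2 fold change 0.55 ± 0.23, adjusted p = 0.0921), whereas C-MYC was 1.81-fold above BCR-ABL1 (adjusted p = 0.0341). Tpi1, triose phosphate isomerase, was at 449 and 439 CPM with EV, 357 and 376 with BCR-ABL1 and 807 and 618 with C-MYC, 1.61-fold above EV (adjusted p = 0.00503) and 1.94-fold above BCR-ABL1 (adjusted p = 0.00339). Gpi1, glucose-6-phosphate isomerase, ranged from 585 to 959 CPM and was not called (C-MYC against EV, log2 fold change 0.41 ± 0.15, adjusted p = 0.0599).

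From the triose phosphates to pyruvate, Gapdh, Pgk1, Pgam1 and Pkm were all higher in C-MYC than in EV and than in BCR-ABL1. Pgam1 (chr19:41911923-41918660, plus strand), phosphoglycerate mutase, was at 84.4 and 93.0 CPM with EV, 96.4 and 105 with BCR-ABL1 and 198 and 191 with C-MYC. The C-MYC libraries were far above the rest and close to each other, and the log2 fold change was 1.13 ± 0.11 against EV (adjusted p = 0.000405) and 0.95 ± 0.11 against BCR-ABL1 (adjusted p = 0.00172). Pkm, pyruvate kinase, was at 2006 and 1717 CPM with EV, 1637 and 1693 with BCR-ABL1 and 3178 and 2485 with C-MYC, 1.52-fold above EV (adjusted p = 0.00908). Pgk1, phosphoglycerate kinase, was at 517 and 369 CPM in EV and 706 and 650 in C-MYC (1.53-fold, adjusted p = 0.016). Gapdh, often used as a reference gene, was at 1575 and 1495 CPM with EV, 1619 and 1647 with BCR-ABL1 and 2256 and 1949 with C-MYC. It was 1.37-fold higher in C-MYC than in EV (adjusted p = 0.00868) and 1.29-fold higher than in BCR-ABL1 (adjusted p = 0.0353), but on the deposited FPKM limma called it in neither comparison (log2 fold change over EV 0.22, adjusted p = 0.194 with a pseudocount of 1). Gapdh, Pgam1, Pgk1, Tpi1, Aldoa and Ldha are known to have processed copies in the mouse genome, and how reads shared with such copies were counted is not given.

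Enolase could not be followed by counts. Eno1 had 0 and 0 counts with EV, 0 and 1 with BCR-ABL1 and 5 and 4 with C-MYC, while its deposited FPKM (fragments per kilobase of transcript, scaled to depth) were 8.73 and 314 with EV, 314 and 2.73 with BCR-ABL1 and 1.05 and 1.29 with C-MYC. Eno1b, a near-identical copy that is no member, had 25 to 55 counts and an FPKM of 396 and 198 with EV, 196 and 384 with BCR-ABL1 and 730 and 557 with C-MYC. Where the FPKM of Eno1 was high, that of Eno1b was low among the EV and BCR-ABL1 libraries, so the level of Eno1 by itself is uncertain and the low counts do not show that it is absent. The summed FPKM of the pair were 405 and 511 with EV, 511 and 387 with BCR-ABL1 and 731 and 559 with C-MYC, with both C-MYC libraries above the others. Eno3, the muscle enolase, was between 2.84 and 4.97 CPM and was not called, and Eno2, the neuronal form, had at most 8 counts in a library.

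Lactate dehydrogenase turns pyruvate into lactate, and nearly all of its mRNA was Ldha. Ldha (chr7:46841475-46855627, plus strand) was at 1333 and 1214 CPM with EV, 1244 and 1296 with BCR-ABL1 and 3053 and 2504 with C-MYC. EV and BCR-ABL1 overlapped and C-MYC was above both, with a log2 fold change of 1.13 ± 0.12 over EV (2.18-fold, adjusted p = 0.000489) and 1.13 ± 0.12 over BCR-ABL1 (adjusted p = 0.00128). The Ldha promoter shown above was the only one among the members with 2 E-boxes in the window, and the other listed Ldha promoter held 0. BCR-ABL1 against EV gave 0.00 ± 0.12 (adjusted p = 0.989). Ldhb was between 0.664 and 3.18 CPM, on 14 to 76 counts, and was not called (BCR-ABL1 against EV, log2 fold change -1.62 ± 0.47, adjusted p = 0.0508).

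**Figure D3:**
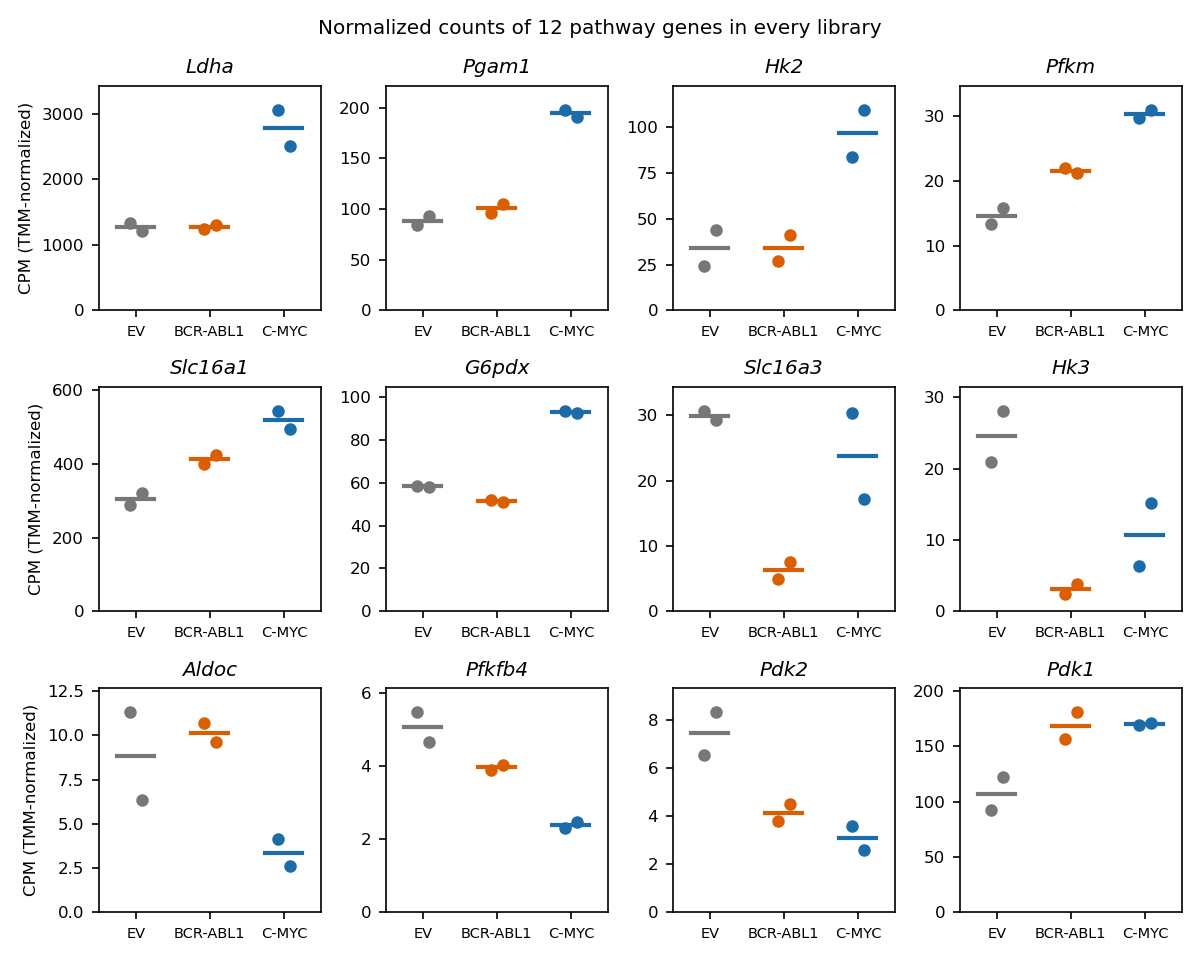
TMM-normalized CPM (y axis, from 0) of 12 members in every library; points are libraries and short lines are the means of the 2 libraries of EV (grey), BCR-ABL1 (orange) and C-MYC (blue). Ldha, Pgam1, Hk2, Pfkm and G6pdx were highest in both C-MYC libraries, Slc16a3 and Hk3 were lowest in BCR-ABL1, and Aldoc, Pfkfb4 and Pdk2 were lowest in C-MYC.

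The pyruvate dehydrogenase kinases, which phosphorylate and inhibit the pyruvate dehydrogenase complex, differed from one another. Pdk1 was at 92.0 and 122 CPM with EV, 157 and 181 with BCR-ABL1 and 169 and 171 with C-MYC. Both oncogenes were above EV, by 1.58-fold in BCR-ABL1 (adjusted p = 0.0223) and 1.59-fold in C-MYC (adjusted p = 0.00931), and between them the log2 difference was 0.01 ± 0.15 (adjusted p = 0.971). Pdk2 (chr11:95026258-95041354, minus strand) was at 6.54 and 8.32 CPM with EV, 3.79 and 4.49 with BCR-ABL1 and 3.59 and 2.60 with C-MYC. Its log2 fold change against EV was -1.26 ± 0.27 in C-MYC (adjusted p = 0.00785) and -0.84 ± 0.27 in BCR-ABL1 (adjusted p = 0.07). Pdk3 was between 50.6 and 70.1 CPM and was not called, and Pdk4 had 2 and 3 counts in EV and 0 in the other 4 libraries, at or under the floor of 3 counts that a count of 0 allows.

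In the oxidative pentose phosphate branch, the NADPH-forming enzymes were higher in C-MYC. G6pdx, the rate-limiting glucose-6-phosphate dehydrogenase, was at 58.5 and 57.9 CPM with EV, 51.9 and 51.1 with BCR-ABL1 and 93.3 and 92.5 with C-MYC. Replicates were nearly equal, and C-MYC was 1.60-fold above EV (adjusted p = 0.00227) and 1.80-fold above BCR-ABL1 (adjusted p = 0.00258). Pgd, 6-phosphogluconate dehydrogenase, was at 117 and 146 CPM with EV, 112 and 129 with BCR-ABL1 and 193 and 215 with C-MYC, 1.55-fold above EV (adjusted p = 0.00859). Pgls, the lactonase between them, forms no NADPH and was at 232 and 200 CPM with EV, 169 and 162 with BCR-ABL1 and 186 and 155 with C-MYC. It was not called in either comparison with EV (adjusted p = 0.0638 in C-MYC and 0.0815 in BCR-ABL1).

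In the non-oxidative branch, Tkt and Rpia were higher in C-MYC than in EV, and Rpe and Taldo1 were not called. Tkt, transketolase, was at 556 and 542 CPM with EV, 753 and 729 with BCR-ABL1 and 1050 and 816 with C-MYC. The conditions did not overlap, with 1.70-fold in C-MYC (adjusted p = 0.00258) and 1.35-fold in BCR-ABL1 (adjusted p = 0.0541) over EV. Rpia, ribose-5-phosphate isomerase, was at 157 and 140 CPM with EV, 144 and 135 with BCR-ABL1 and 206 and 217 with C-MYC, 1.42-fold above EV (adjusted p = 0.00699). Taldo1, transaldolase, was between 168 and 208 CPM and Rpe between 43.3 and 53.2 CPM.

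Levels of different members were compared by the deposited FPKM, which are per length. Ldha, Gapdh and Gpi1 had the highest mean FPKM of the members in every condition, at 1624, 977 and 796 with EV, 1540, 902 and 732 with BCR-ABL1 and 3244, 1134 and 963 with C-MYC. This order depended on the scale: by counts per kilobase of annotated exon, Ldha, Pkm and Gapdh were the 3 highest members in every condition, and Gpi1, whose ratio of FPKM to counts per kilobase was 5.01 times that of the median gene, ranked 7, 8 and 7 with EV, BCR-ABL1 and C-MYC. By FPKM, Gapdh and Gpi1 did not overlap in EV (1070 and 884 against 843 and 748 FPKM) and overlapped in C-MYC (1189 and 1079 against 1089 and 837 FPKM). Among hexokinases, Hk1 held 95.5% ± 1.67 (SD, n = 2) of the summed FPKM in EV and 91.2% ± 2.30 in C-MYC, and Hk2 held 2.75% ± 1.22 with EV, 3.53% ± 0.911 with BCR-ABL1 and 7.98% ± 1.80 with C-MYC. Counts per kilobase of annotated exon gave Hk2 a share of 15.5%, 22.6% and 38.8%, so C-MYC had the highest Hk2 share on both scales while the size of the share depended on the scale. For Hk1 the ratio of FPKM to counts per kilobase was 9.29 times that of the median gene, and in EV the order of Hk2 and Hk3 changed with the scale, while Hk1 was the highest on both. Slc16a3 made up 5.36% ± 0.562 of the FPKM of both lactate transporters with EV, 0.871% ± 0.223 with BCR-ABL1 and 2.54% ± 0.835 with C-MYC. Pdk1 held 57.6% ± 8.48, 64.2% ± 3.07 and 66.5% ± 3.08 of the FPKM of the pyruvate dehydrogenase kinases, with EV and BCR-ABL1 overlapping. By counts per kilobase, Pdk3 was the highest of that family in every condition. Ldha held a mean of 99.6% or more of lactate dehydrogenase on either scale. With 2 libraries against 2 an exact permutation test of a share cannot go below p = 0.333, and none was run.

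**Figure D4:**
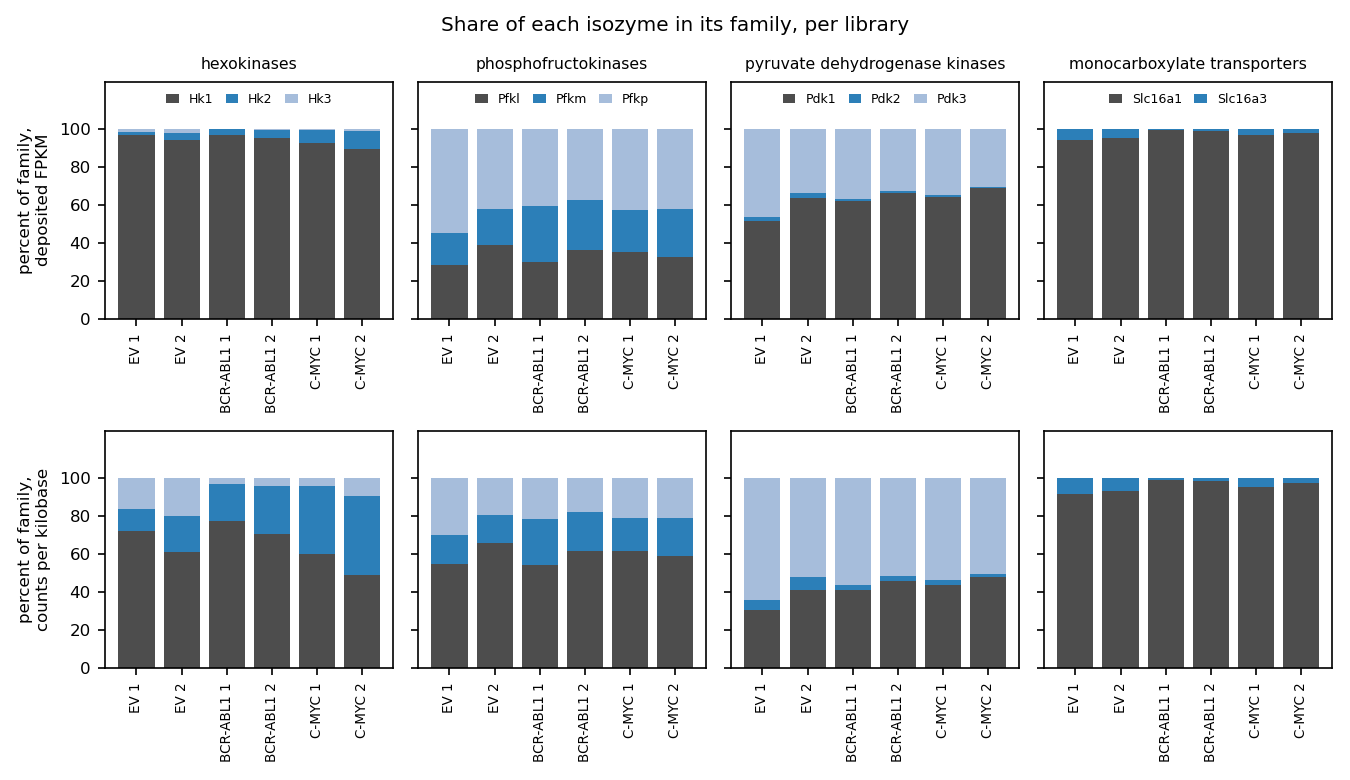
Share of each isozyme in its family (percent, y axis) in each of the 6 libraries, from deposited FPKM (upper row) and from counts per kilobase of annotated exon (lower row), with Pdk4, a trace of its family, not drawn. Hk2 takes a larger share of hexokinase in both C-MYC libraries than in the others on both scales, and Slc16a3 has its smallest share of the lactate transporters in BCR-ABL1.

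Of the 71 other genes of these pathways set beside the members, 50 were tested. In C-MYC against EV 17 were higher and 10 lower, in BCR-ABL1 against EV 4 and 4, and in C-MYC against BCR-ABL1 7 and 6. Over all genes tested the shares higher and lower were 18.6% and 24.5%, 5.08% and 12%, and 11.5% and 11.9%. The 10 lower genes in C-MYC against EV and the counts of both other comparisons were near these shares. The 50 genes had median log2 fold changes of 0.13, 0.07 and 0.13. Of 7 other isozymes tested, 1 was higher and 1 lower in C-MYC than in EV. Among these isozymes, Pgam2, unlike Pgam1, had a lower mean in C-MYC, at 5.59 CPM with EV, 3.21 with BCR-ABL1 and 1.84 with C-MYC. The genes for pyruvate entry into mitochondria were higher in C-MYC than in EV for 6 of 9. Dlat, a core subunit of the pyruvate dehydrogenase complex, was at 49.3 and 60.4 CPM with EV, 70.4 and 73.0 with BCR-ABL1 and 111 and 121 with C-MYC (log2 fold change over EV 1.08 ± 0.13, adjusted p = 0.000834). In BCR-ABL1 against EV edgeR called 0 of these 9, with 4 higher at an unadjusted p below 0.05 and 2 called higher by DESeq2, and 3 were higher in C-MYC than in BCR-ABL1.

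Of 18 genes of sugar entry, side branches and gluconeogenesis that were tested, 9 were higher in C-MYC than in EV, beside 18.6% of all genes tested. Galk1, galactokinase, was at 80.4 and 75.9 CPM with EV, 80.1 and 94.7 with BCR-ABL1 and 170 and 167 with C-MYC (log2 fold change over EV 1.11 ± 0.12, adjusted p = 0.000524). Prps1, which makes the ribose donor of nucleotide synthesis from ribose-5-phosphate, was at 107 and 106, 141 and 144, and 207 and 197 CPM in the same order, called in both oncogenes (adjusted p = 0.000506 in C-MYC and 0.0245 in BCR-ABL1). In BCR-ABL1, Pck2, Pcx and Gpd2 were also higher than in EV, and Galm was lower, at low means of 2.01 CPM in EV and 0.350 in BCR-ABL1. The call of Gpd2 in BCR-ABL1 against EV was absent with upper quartile scaling and with limma on the deposited FPKM. Pcx, pyruvate carboxylase, was at 11.6 and 12.5 CPM with EV, 19.4 and 20.9 with BCR-ABL1 and 12.5 and 10.2 with C-MYC (log2 fold change over EV 0.74 ± 0.17 in BCR-ABL1, adjusted p = 0.0243). Without either BCR-ABL1 library, Prps1, Pck2, Pcx, Gpd2 and Galm were not called in BCR-ABL1 against EV.

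Among 7 tested sugar transporters and partners of the lactate transporters, 4 were lower in C-MYC than in EV, beside 24.5% of all genes tested. Slc2a6, a lysosomal glucose transporter family member, was at 25.2 and 17.5 CPM with EV, 9.77 and 8.48 with BCR-ABL1 and 2.76 and 2.07 with C-MYC. Its log2 fold change against EV was -3.14 ± 0.27 in C-MYC (adjusted p = 0.000306) and -1.23 ± 0.24 in BCR-ABL1 (adjusted p = 0.0127). The others were Slc2a9, Slc2a8 and Emb, and Emb was lower in BCR-ABL1 too. Without either C-MYC library, Slc2a8 and Emb were not called in C-MYC against EV (adjusted p between 0.0695 and 0.0936). Among 9 tested regulators, 1 was higher in C-MYC than in EV (Tigar) and 5 were lower (Arrdc4, Txnip, Mlxip, Arnt and Vhl). Of all genes tested, 18.6% were higher and 24.5% lower there. Of 14 alternative fits, the call of Vhl was kept in 5, that of Tigar in 8, that of Arnt in 9 and that of Txnip in 13, and Vhl was not called by DESeq2. Arrdc4, an arrestin induced by sugar phosphates, was at 21.4 and 5.68 CPM with EV, 1.19 and 1.04 with BCR-ABL1 and 3.77 and 4.45 with C-MYC; the EV libraries differed widely, and the log2 fold change was -3.60 ± 0.61 in BCR-ABL1 (adjusted p = 0.00748) and -1.72 ± 0.54 in C-MYC (adjusted p = 0.0349). Without EV replicate 1 they were -2.35 (adjusted p = 0.00164) and -0.46 (adjusted p = 0.215), and the C-MYC call was also absent without either C-MYC library. Slc2a6 was not called in BCR-ABL1 against EV without either BCR-ABL1 library. These falls went with lower summed myeloid, T and NK cell and stromal markers in both oncogene conditions, with Cd2 higher in BCR-ABL1, and the part of such cells in them was not tested.

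The calls of C-MYC against EV rested on few libraries for some members. Leaving out each library in turn kept 12 of the 21 calls every time: G6pdx, Gapdh, Hk2, Ldha, Pdk1, Pfkm, Pgam1, Pkm, Rpia, Slc16a1, Tkt and Tpi1. Without C-MYC replicate 1 the adjusted p of Hk3, Pfkl, Pfkp, Pfkfb4 and Pgk1 lay between 0.0671 and 0.171, without C-MYC replicate 2 that of Slc2a1, Pfkl, Aldoc, Pfkfb4, Pdk2 and Pgd between 0.0505 and 0.121, without EV replicate 1 that of Pfkl was 0.0628 and without EV replicate 2 that of Hk3 was 0.0945. In BCR-ABL1 against EV, Hk3 and Slc16a3 kept their calls each time. The calls of Slc16a1, Hk1, Pfkm and Pdk1 there were absent without BCR-ABL1 replicate 1 (adjusted p between 0.0679 and 0.303) and without replicate 2 (0.171 to 0.22), those of Slc16a1, Hk1 and Pfkm without EV replicate 1 (0.0638 to 0.0789), and those of Hk1 and Pfkm without C-MYC replicate 1 (0.0684 and 0.0736) or 2 (0.0677 and 0.0741).

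In C-MYC against BCR-ABL1, 5 of the 17 calls were kept each time (G6pdx, Ldha, Pgam1, Slc16a3 and Tpi1). Without BCR-ABL1 replicate 1 the other 12 had an adjusted p between 0.0539 and 0.247, and without BCR-ABL1 replicate 2, 8 of them (Hk3, Pfkl, Pfkm, Aldoa, Aldoc, Gapdh, Pgk1 and Rpia) lay between 0.0501 and 0.23. Without C-MYC replicate 1 the call was absent for Pfkl, Pfkm, Aldoa, Gapdh and Pgk1 (0.0994 to 0.186), and without C-MYC replicate 2 for Hk2, Hk3, Pfkl, Pfkm, Aldoc, Pgk1, Pgd and Rpia (0.0607 to 0.196). No member's call changed direction in any of these fits.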

How the data were processed

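Per the labels and the study's methods, the authors used STAR 2.5.0 and UCSC known genes to align reads of poly(A) RNA to GRCm38/mm10, and deposited raw counts per gene symbol; the counting program and its strand setting are not given in the sources used here. The authors also deposited FPKM values per gene symbol, made with StringTie 1.3.0. The members and all gene lists were chosen with earlier results of these data known. Counts of 6 libraries (2 per condition) were filtered with filterByExpr, TMM-scaled and tested with edgeR 4.0.16 (R 4.3.3; quasi-likelihood, no covariate, 3 residual degrees of freedom), with Benjamini-Hochberg adjustment over 12786 genes. TMM assumes that most genes do not change, so a change in RNA per cell is not seen. The p-values measure the spread between these duplicates, whose origin from separate animals is not stated, and 2 libraries per condition limit the precision. Replicates differed by more than sampling noise (chi-square per degree of freedom 42.9, 10.1 and 19.1 for the EV, BCR-ABL1 and C-MYC pairs). Alternatives were DESeq2 1.42.0, limma 3.58.1 on FPKM, other scalings, no filter, fewer libraries and a replicate block; the test script was checked on simulated data.

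Values of every library are given for members with an adjusted p below 0.05 and an absolute log2 fold change of at least 1 in a comparison, and for others of the same role set beside them. Of the other pathway and hypoxia genes, names were taken from those called with the largest change, at most 4 per direction of a comparison. Pgam2, Slc2a8, Emb, Txnip, Arnt, Vhl, Tigar and, among the hypoxia genes, Mxi1, Ero1l, Egln1, Bhlhe40 and Vegfa were added to these names after their values were seen. Exon lengths and gene positions came from GENCODE M21 (GRCm38) and promoters from RefSeq (GRCm38.p6). The ChIP-seq samples of the series were not used here. Figures were drawn with matplotlib 3.10.9 (Python 3.11.15).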

Additional observations from a re-analysis of the deposited data

How the results depend on the processing

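Each comparison was refitted under 14 alternatives. No member's call reversed; 11 of 21 calls of C-MYC against EV, 2 of 6 of BCR-ABL1 against EV and 5 of 17 of C-MYC against BCR-ABL1 were kept in all 14. In BCR-ABL1 against EV (3 members higher, 3 lower), the replicate block gave 5 and 6, limma on log2(FPKM + 1) and on log2(FPKM + 0.1) gave 0 higher, and upper quartile scaling gave 2 higher and 5 lower, while DESeq2 size factors gave 4 and 2. In C-MYC against BCR-ABL1 (1 lower), only the 4 libraries compared and limma on log2(FPKM + 1) gave 2 lower. Both limma fits lost the calls of Slc2a1, Pfkl and Gapdh in C-MYC against EV. Both also lost those of Hk3, Pfkl and Gapdh in C-MYC against BCR-ABL1, and limma on log2(FPKM + 1) that of Pfkm there. Leaving out a library gave 14 to 19 higher and 1 to 5 lower in C-MYC against EV, with 1 lower without C-MYC replicate 2 and 2 without replicate 1. It gave 0 to 3 higher (0 without either BCR-ABL1 library, 1 without EV replicate 1) and 2 to 6 lower (6 without EV replicate 2) in BCR-ABL1 against EV. In C-MYC against BCR-ABL1 it gave 5 to 20 higher (5 without BCR-ABL1 replicate 1, 9 without replicate 2) and 0 to 2 lower (0 without either BCR-ABL1 library or C-MYC replicate 2, 2 without either EV library). A lone library of a condition was then assumed to vary like the others. The cause of these moves was not tested. Of 45 calls of the genes named outside the members, 16 were kept in all 14 alternatives and 0 reversed.

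Counts over all genes moved as well. From 650 higher and 1530 lower in BCR-ABL1 against EV, the block gave 1221 and 2003, limma on log2(FPKM + 1) 340 and 1347, limma on log2(FPKM + 0.1) 364 and 1497, only 4 libraries 402 and 1332, and leaving out a library 118 to 1000 and 547 to 1799, lowest without BCR-ABL1 replicate 2 and highest without an EV library. From 1468 and 1523 in C-MYC against BCR-ABL1, only 4 libraries gave 2271 and 2267, limma on log2(FPKM + 1) 950 and 1336, and leaving out a library 176 to 2235 and 442 to 2284, lowest without BCR-ABL1 replicate 1 and highest without EV replicate 2. From 2383 and 3132 in C-MYC against EV, leaving out a library gave 1431 to 2701 and 1898 to 3376, lowest without C-MYC replicate 1 and highest without EV replicate 2.

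Same-numbered libraries deviated together (correlation of deviations over 12786 genes 0.273 for EV and BCR-ABL1, 0.236 for EV and C-MYC, 0.204 for BCR-ABL1 and C-MYC), but the labels do not say that a number marks a shared batch, and with 2 numbers the pairing cannot be settled. With the replicate block, members higher and lower were 19 and 5 in C-MYC against EV and 20 and 1 in C-MYC against BCR-ABL1. It added calls for Aldoa, Gpi1 and Pgls in C-MYC against EV (adjusted p between 0.014 and 0.0164), for Ldhb, Pdk2, Pgls, Slc2a1 and Tkt in BCR-ABL1 against EV (0.0165 to 0.0446) and for Gpi1, Ldhb, Slc16a1 and Tkt in C-MYC against BCR-ABL1 (0.0162 to 0.0395).

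On counts per kilobase in place of FPKM, the shares in EV, BCR-ABL1 and C-MYC were 15.5%, 22.6% and 38.8% for Hk2, 60.4%, 58% and 60.4% for Pfkl, 35.8%, 43.5% and 45.9% for Pdk1 and 7.55%, 1.25% and 3.62% for Slc16a3. By FPKM, Pfkl held 33.63%, 33% and 33.91%, below Pfkp at 48.45%, 39.23% and 42.25%, whereas by counts per kilobase Pfkl was the highest of its family in every condition. Pdk1 was the highest of its family by FPKM, whereas Pdk3 was by counts per kilobase, at 58.05%, 53.84% and 52.08%. Annotated exon length counts all isoforms, and which isoforms the cells used was not tested.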

Other observations

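Many glycolytic genes are also known targets of the hypoxia-inducible factor, so 18 hypoxia response genes outside the pathway were set beside the members. All 18 were tested, and their median log2 fold change was -0.17 in C-MYC against EV, -0.13 in BCR-ABL1 against EV and 0.17 in C-MYC against BCR-ABL1. In C-MYC against EV 4 were higher and 4 lower, near the 18.6% and 24.5% of all genes tested. Egln3, an oxygen-sensing prolyl hydroxylase, was at 16.7 and 20.6 CPM with EV, 20.9 and 26.6 with BCR-ABL1 and 36.8 and 47.6 with C-MYC (log2 fold change over EV 1.18 ± 0.20, adjusted p = 0.00272). The other higher genes were Mxi1, Ero1l and Egln1. Vegfa, the angiogenic growth factor, was at 107 and 154 CPM in EV and 89.8 and 88.9 in C-MYC (log2 fold change -0.55 ± 0.17, adjusted p = 0.0316). Without EV replicate 2 its log2 fold change was -0.26, and 8 of 14 alternative fits kept the call. Adm, Rora and Bhlhe40 were lower as well, Adm at low means of 2.21 CPM in EV and 0.227 in C-MYC. Without either C-MYC library, Ero1l, Egln1, Vegfa and Bhlhe40 were not called. In BCR-ABL1 against EV edgeR called 0 higher (1 at an unadjusted p below 0.05, 1 by DESeq2) and 4 lower, beside 5.08% and 12% of all genes tested. Rora, a nuclear receptor, was among the lower genes, at 19.5 and 9.20 CPM in EV and 1.80 and 1.83 in BCR-ABL1 (adjusted p = 0.00244). Summed myeloid, T and NK cell and stromal markers were lower than in EV in both oncogene conditions, with Cd2 higher in BCR-ABL1. The part of such cells in the lower hypoxia response genes was not tested. In C-MYC against BCR-ABL1 5 were higher and 2 lower, beside 11.5% and 11.9% of all genes tested.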
